A study of Mus musculus with 10 samples.

Results

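Among 1577 genomic loci listed for binding of Elk1 or Gli2 in mouse cells, 2 lay at genes of neural progenitors, 1 at Sox2 and 1 inside Nes. They were picked by their start coordinates because the Elk1 signal at Sox2 was high at day 4 of reprogramming and the Gli2 signal at Nes was high in the neural cells. The signals below therefore describe the loci and test nothing. Each signal came from chromatin immunoprecipitation followed by sequencing, with 1 library per antibody and stage and 10 libraries in all. Stages can therefore be described but not tested against each other.

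The day 0 cells are fibroblasts called tdMEFs in the labels, kept in MEF medium with serum at 20% oxygen. Cells of days 4 and 8 were in M9 medium at 5% oxygen. M9 combines Neural basal and DMEM/F12 with N2, B27, basic FGF and small molecules, namely the GSK3 inhibitor CHIR99021, the BMP receptor inhibitor LDN193189, the TGF-beta receptor inhibitor A83-01, the Smoothened agonist Hh-Ag1.5, retinoic acid, SMER28, the DNA methyltransferase inhibitor RG108 and Parnate. The remaining stages are ciNSLCs, the product of the reprogramming, and pri-NPC, and the labels do not describe the culture of either. The labels name no animals, clones or pools for any stage. The series text writes ciNSLC beside day 0, whereas the sample labels keep them apart, and the sample labels were followed.

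Sox2 encodes an HMG-box transcription factor that keeps neural progenitors undifferentiated, and Nes encodes nestin, an intermediate filament protein used as a marker of neural stem cells. Elk1 is an ETS-domain factor that binds GGAA-type sites, often beside serum response factor, and is phosphorylated by MAP kinases downstream of FGF. Gli2 is a zinc finger factor through which Smoothened changes transcription in the Hedgehog pathway. In transgenic mice an intronic enhancer of Nes drives expression in neural progenitors.

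The loci differ in where they sit on their genes. The Sox2 locus (gene ID 20674, chr3:34649325-34650265, mm10) was 940 bp wide and spanned the annotated start of Sox2, from 670 bp before it to 270 bp after it. It also lay within Sox2ot, a long noncoding RNA gene that encloses Sox2. The Nes locus (gene ID 18008, chr3:87974205-87974645) was 440 bp wide and lay inside the gene, 3112 to 3552 bp after its start. Both genes are on the plus strand. The annotation used gives no exons, so exon, intron and UTR are not assigned, and whether the Nes locus covers the intronic enhancer was not tested. Both loci were wide for the table, whose median width was 260 bp. Sox2 was wider than 96.5% of loci and Nes than 81.6%.

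**Figure D1:**
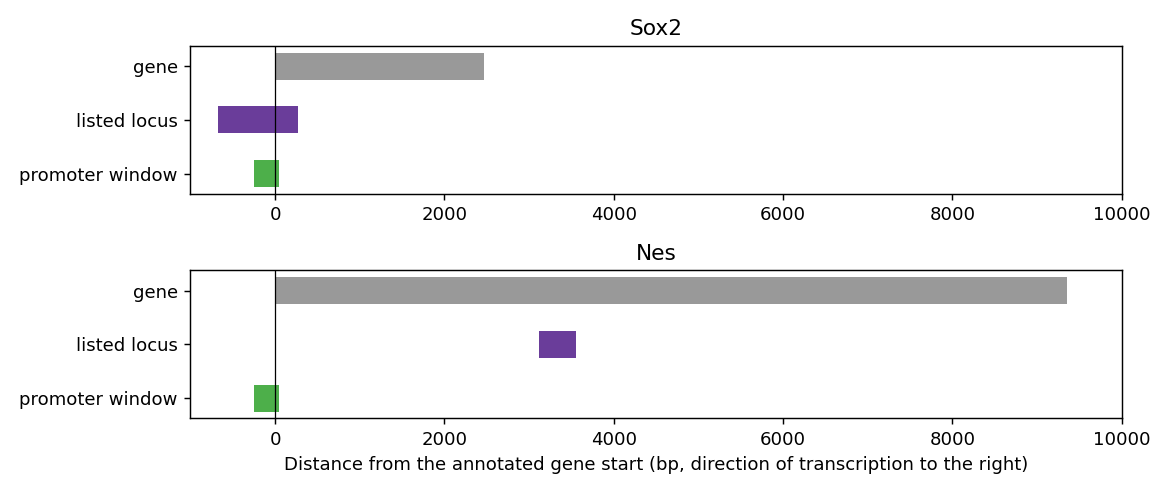
The gene, the listed locus and the promoter window (250 bp before to 50 bp after the start) of Sox2 and Nes, in bp from the annotated gene start. The Sox2 locus holds the whole promoter window, and the Nes locus begins 3112 bp into the gene.

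The Sox2 promoter is shown because the listed locus holds the whole window. Of 21262 promoter windows of protein-coding genes 4 lay wholly inside a locus, those of Sox2, Polr3e, Ndufs7 and Cipc. The sequence is the RefSeq window on GRCm38.p6, the same build as mm10, at chr3:34649745-34650044 on the plus strand. Capitals mark its 1 match to the ETS core CCGGAA, which begins 38 bp before the gene start.
Sox2 promoter: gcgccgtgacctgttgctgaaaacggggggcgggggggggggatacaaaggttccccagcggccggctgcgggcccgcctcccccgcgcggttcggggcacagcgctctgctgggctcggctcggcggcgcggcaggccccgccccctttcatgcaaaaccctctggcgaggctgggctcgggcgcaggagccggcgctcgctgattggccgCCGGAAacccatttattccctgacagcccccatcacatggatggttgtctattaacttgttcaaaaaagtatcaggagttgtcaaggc

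On both strands, CCGGAA was in 18.7% of all protein-coding promoter windows. The longer ETS form CCGGAAGT, which contains the core, was in 5.15% of windows and was not in that of Sox2. The GLI consensus GACCACCCA (0.179% of windows), its shorter form CCACCCA (9.46%) and the CArG box of serum response factor (1.52%) were not in it either. Only the 300 bp window was searched, not the rest of the 940 bp locus, and GGAA sites outside the core were not counted or marked. The window was 66.3% G or C, against a median of 56.3% over all windows. The Nes promoter window lay outside the Nes locus and is not shown.

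Loci on promoters were few in the table. Of all loci, 32 (2.03%) touched a promoter window of a protein-coding gene. Among the 190 loci that reached a signal of 100 in the Elk1 day 4 library alone, as Sox2 did, 2 touched one, Sox2 and the locus 44 bp from Map3k14, a kinase of the noncanonical NF-kappaB pathway. The Map3k14 locus, named after its values were seen, had Elk1 signals of 27.5 at day 0, 164.7 and 81.2 on days 4 and 8, and 52.2 and 99.3 in ciNSLCs and pri-NPC. The loci that held the Polr3e, Ndufs7 and Cipc windows had Elk1 signals of at most 18.6 in every library and Gli2 signals of 286.7, 324.8 and 107.5 at day 0. Of the 4 loci that held a whole window, that of Sox2 was thus the 1 listed through Elk1.

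Elk1 signal at Sox2 was 29.4, 139.1 and 55.9 at days 0, 4 and 8, then 32.8 in ciNSLCs and 9.3 in pri-NPC. It was highest at day 4, the 1 library in which the locus reached 100, and lowest in pri-NPC. Low signals in the table lie on a grid, as if a background count had been taken off a count, each times a constant, so the counts behind each signal could be read from the values. Read this way, the Elk1 signals at Sox2 rest on 11 immunoprecipitate units at day 0 (95% exact Poisson interval 5.49 to 19.7), 16 at day 4 (9.15 to 26), 11 on day 8, 14 for ciNSLCs and 1 for pri-NPC. The background units taken off were 1, 2, 0, 1 and 1 in the same order. All intervals cover counting error at most, because the labels mention PCR cycles and no molecular identifiers. Intervals of signals and of ratios as deposited take signal over unit value as the count. They leave out the counting error of the background taken off and can be too narrow.

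From day 0 to ciNSLCs, pri-NPC left out, the units at Sox2 ran from 11 to 16 and the signals from 29.4 to 139.1, so the units differed less than the signals did. In pri-NPC both were at their lowest. What 1 unit was worth was 3.43 at day 0, 9.69 and 5.08 on days 4 and 8, and 2.82 and 14.5 in ciNSLCs and pri-NPC. Days 0 and 8 had the same number of units, and the ciNSLC library had more units than either. Total depth is not given, so numbers of units alone do not compare binding between stages. The pri-NPC signal of 9.3 rests on a single unit, whose interval of 0.0253 to 5.57 units covers scaled values from 0.367 to 80.8, so on the deposited scale a level like that of day 0 or day 8 was not detectable as different at this depth.

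**Figure D2:**
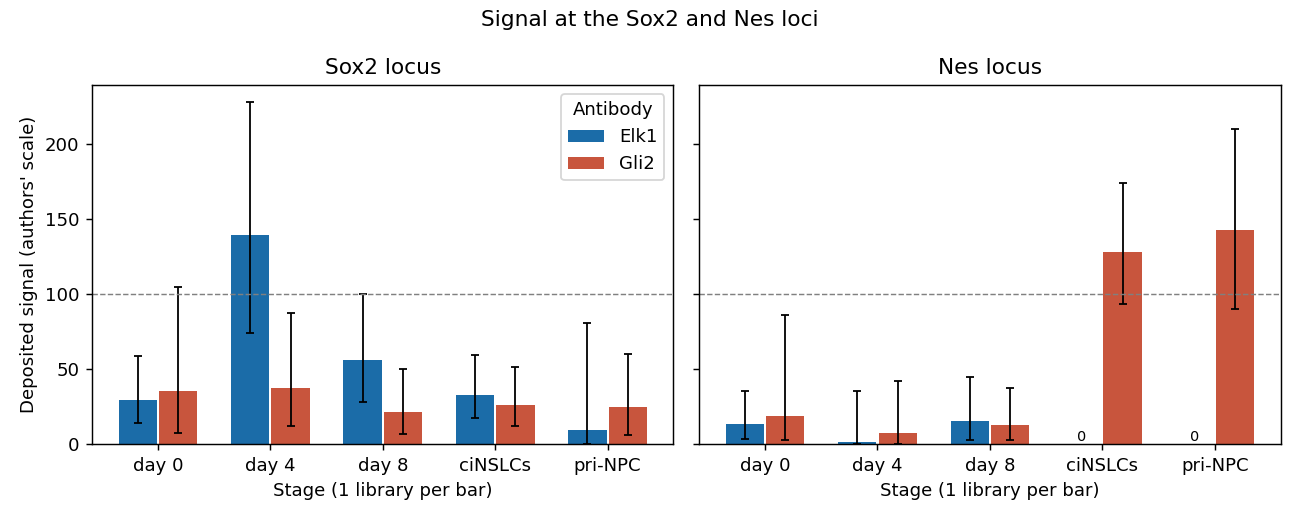
Deposited signal of each library at the Sox2 and Nes loci, with 95% exact Poisson intervals of the counted units (signal over the value of 1 unit) as bars and the signal of 100 as a dashed line. Elk1 at Sox2 passes 100 at day 4 with 139.1, Gli2 at Nes passes it in ciNSLCs and pri-NPC with 128.2 and 142.8, and Elk1 at Nes is listed at 0 in those stages.

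Ordered by level, Elk1 signal at Sox2 ran from day 4 through day 8, ciNSLCs and day 0 to pri-NPC. Day 8 was 0.402 times day 4 (95% exact conditional binomial interval 0.169 to 0.976), a log2 difference of -1.30 with a pseudocount of 1, and 44.0% of loci were at least 2-fold lower. After scaling every library to the same median this was -0.77, and to the same 75th percentile -0.32, which is within the 2-fold limit used here, and the intervals of both scaled ratios held 1. As deposited, the other neighbours in the order were within counting error of each other, with ratios of 0.587 for ciNSLCs to day 8 (interval 0.245 to 1.52), 1.12 for ciNSLCs to day 0 (0.424 to 2.95) and 0.316 for pri-NPC to day 0 (0.0107 to 3.39).

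Against day 0, Elk1 signal at Sox2 was 4.73 times higher at day 4 (interval 1.77 to 11.5), or 4.1 times from the immunoprecipitate units without background subtraction (1.79 to 9.78). The log2 difference was 2.20, and 1.70 or 1.06 after scaling to the same median or 75th percentile. The scaled ratios were 3.29 (interval 1.23 to 8.0) and 2.1 (0.784 to 5.09), the latter within counting error of 1. Median scaling shifted the differences of all loci by a median of -0.49 in this comparison. At least 2-fold higher Elk1 signal at day 4 was common in the table, at 43.2% of loci, and 377 loci including Sox2 had a difference at least as large as that of Sox2. At day 8 Sox2 was within the 2-fold limit (log2 difference 0.90), where 26.3% of loci were higher, and so it was in ciNSLCs (0.15), where 22.5% were higher. In pri-NPC it was past the limit in the other direction (-1.56), as were 19.5% of loci, while the median of all loci was 2.03. Scaling to the same median, which shifted all loci by a median of -2.05, made it -3.55, and scaling to the same 75th percentile made it -3.92. The pri-NPC to day 0 ratio was then 0.0684 (interval 0.00232 to 0.733) or 0.0536 (0.00181 to 0.573), so that it was within counting error of 1 on the deposited scale but not after either scaling. The locus is in the table through its day 4 signal, which favours a high value at that stage.

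Rank within a library does not depend on scaling between libraries. By rank Sox2 stood high with Elk1 before day 4 as well, above 88.6% of loci at day 0, 95.0% at day 4, 93.5% at day 8 and 93.3% in ciNSLCs. In pri-NPC it was above 20.2% of loci, or 35.4% of those that reached 100 in another library. Among the 190 loci that reached 100 with Elk1 at day 4 alone, its Elk1 signal ranked 36th at day 0, 6th at day 4, 10th at day 8, 11th in ciNSLCs and 109th in pri-NPC. The median Elk1 signals of these loci were 17.2, 108, 14.8, 11.3 and 14.5 in the same order. Their median log2 difference at day 4 was 2.69, and that of Sox2 ranked 139th.

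The Sox2 locus was the widest of these 190, whose median width was 250 bp. Signal and width moved together among them, with a Spearman rho of 0.61 at day 4 over loci that share 1 library and its listing. Whether the deposited signal is a sum over the locus is not given in the sources used here. Divided by width, the day 4 Elk1 signal at Sox2 was 14.8 per 100 bp, the lowest of the 190, whose median was 44.7, and it was above 76.3% of all loci instead of 95.0%. Ratios between stages at 1 locus do not depend on its width.

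Gli2 signal at Sox2 was 35.8, 37.6 and 21.4 at days 0, 4 and 8, then 26.3 in ciNSLCs and 24.8 in pri-NPC. It stayed under 100 in every library and rests on 3, 5, 5, 11 and 6 immunoprecipitate units, with 0, 0, 0, 1 and 2 background units. Each later stage was within 2-fold of day 0, with log2 differences between -0.72 and 0.07, and within counting error, with interval bounds of ratios between 0.111 and 6.76. After median scaling these differences were 0.32 to 1.28 and after scaling to the same 75th percentile 0.88 to 1.61, with every interval still holding 1. At day 4 Elk1 signal at Sox2 was 3.7 times the Gli2 signal (interval 1.23 to 12.8). At the other stages the ratio was within counting error of 1, with values of 0.821 and 2.61 on days 0 and 8, and 1.25 and 0.375 in ciNSLCs and pri-NPC. After median scaling the day 0 log2 difference between the antibodies went from -0.28 to 1.47. The antibodies differ and their signals are not on a shared scale, so these ratios set the values side by side only.

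At Nes the antibody with high signal was Gli2. Its signal was 19 at day 0, 7.5 and 12.8 on days 4 and 8, and 128.2 and 142.8 in ciNSLCs and pri-NPC. The libraries of the M9 days and day 0 were low and those of ciNSLCs and pri-NPC high, with none between. The ciNSLC signal rests on 45 immunoprecipitate units (exact Poisson interval 32.8 to 60.2) and that of pri-NPC on 27 (17.8 to 39.3). Those of day 0, day 4 and day 8 rest on 3, 1 and 3 units. The background units were 2, 0, 0, 1 and 3 in order of stage.

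**Figure D3:**
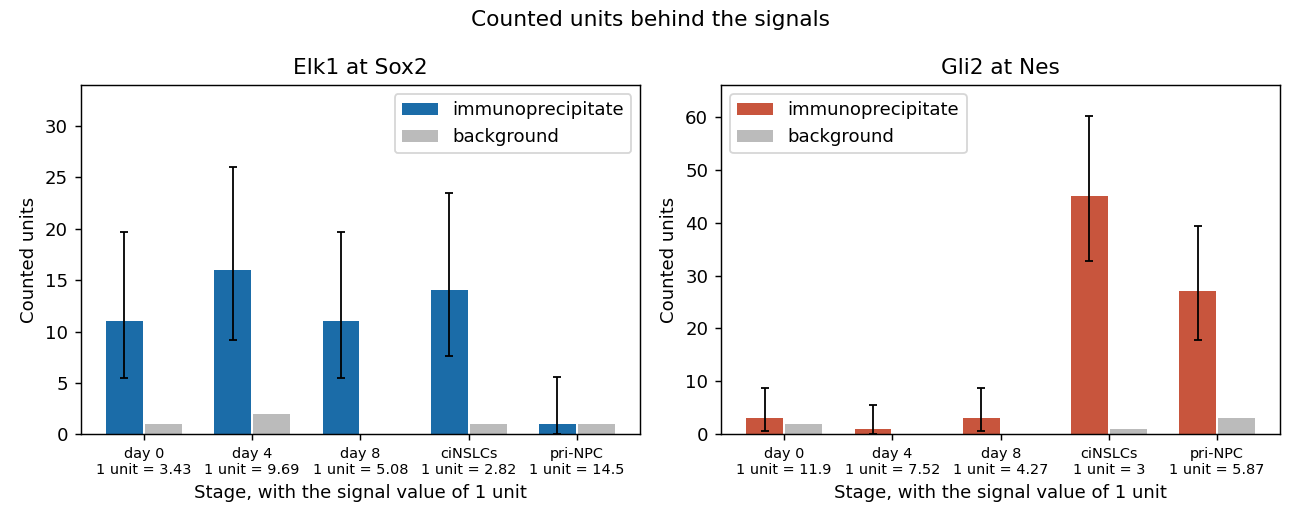
Immunoprecipitate and background units read from the deposited signals, for Elk1 at Sox2 and Gli2 at Nes in each library, with 95% exact Poisson intervals and the signal value of 1 unit under each stage. Elk1 at Sox2 has 11 to 16 units at all stages but pri-NPC, which has 1, whereas Gli2 at Nes has 1 to 3 units up to day 8, then 45 and 27.

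The values at Nes that are high are also the better counted ones. A unit of Gli2 was worth 11.9, 7.52 and 4.27 at days 0, 4 and 8, then 3.00 in ciNSLCs and 5.87 in pri-NPC. The ciNSLC library thus had the lowest unit value of the Gli2 libraries and the highest number of units at Nes. The day 0 signal of 19 is 3 immunoprecipitate units less 2 background units, and its interval of 0.619 to 8.77 units covers scaled values from 7.39 to 105 before subtraction.

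In order of level as deposited, Gli2 signal at Nes ran from pri-NPC through ciNSLCs, day 0 and day 8 to day 4. The pri-NPC signal was 1.11 times that of ciNSLCs (interval 0.634 to 1.84), so a pri-NPC signal over 1.84 times that of ciNSLCs lay outside the interval. Their log2 difference of 0.15 turned to -0.23 after median scaling and to -0.39 after scaling to the same 75th percentile, which puts ciNSLCs first, and the intervals of the scaled ratios held 1 as well. The ciNSLC signal was 6.75 times that of day 0 (1.41 to 46) and 10.0 times that of day 8 (3.22 to 50.7). From immunoprecipitate units without background subtraction the ciNSLC to day 0 ratio was 3.77 (1.21 to 18.9) and that of pri-NPC to day 0 was 4.42 (1.36 to 22.8), against 7.52 (1.46 to 51.5) as deposited. The ciNSLC to day 8 ratio was 10.5 (3.38 to 53) in the same way. Days 0, 4 and 8 were within counting error of each other. The day 4 log2 difference from day 0 was -1.23, past the 2-fold limit as at 54.2% of loci, and -0.08 after median scaling or 0.24 after scaling to the same 75th percentile. The day 8 one was -0.54, where 57.0% of loci were lower, and 0.85 or 1.33 after these scalings.

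In ciNSLCs 21.2% of loci had Gli2 signal at least 2-fold above day 0, in pri-NPC 24.7% did, and 33.0% were as far above day 8 in ciNSLCs. The Nes log2 differences from day 0 were 2.69 in ciNSLCs and 2.85 in pri-NPC, above those of 89.2% and 87.8% of loci. They became 3.88 and 3.65 after median scaling, which shifted all loci by medians of 1.18 and 0.84. After scaling to the same 75th percentile they were 4.58 and 4.19. From day 8 to ciNSLCs the Nes difference was 3.23, above that of 92.8% of loci. By rank Nes was above 37.9% of loci with Gli2 at day 0, 24.5% and 44.5% on days 4 and 8, and 89.0% and 89.9% in ciNSLCs and pri-NPC. Divided by width, its signal was above 91.8% of loci in ciNSLCs and 92.2% in pri-NPC.

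**Figure D4:**
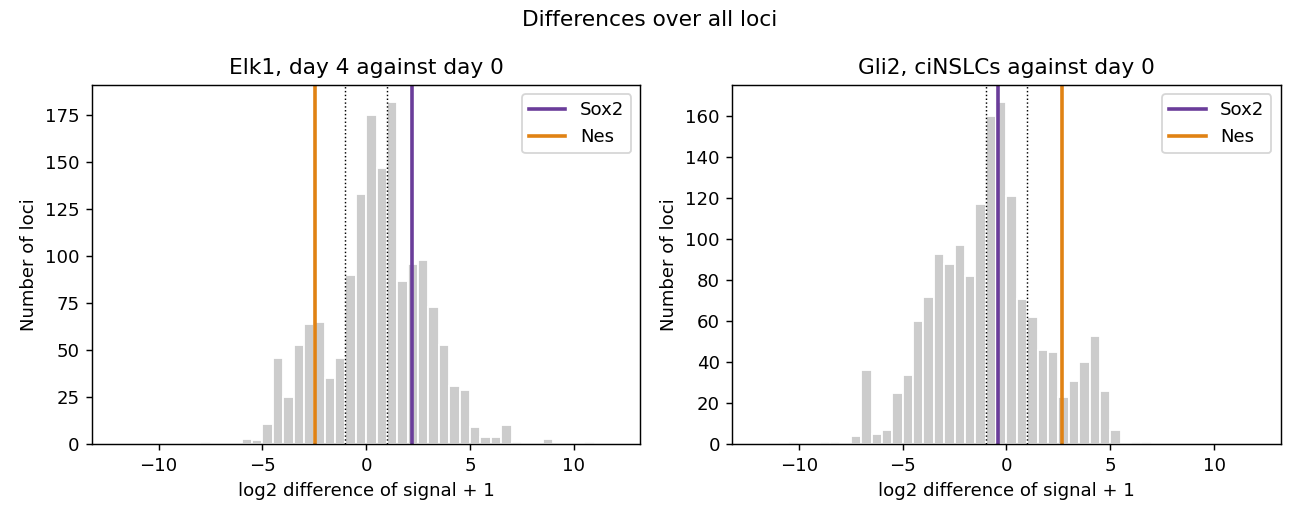
Number of loci by log2 difference of signal plus 1, for Elk1 at day 4 and for Gli2 in ciNSLCs, each against day 0, with lines at Sox2 and Nes and dotted lines at 2-fold. Sox2 lies at 2.20 with Elk1 and at -0.43 with Gli2, and Nes at -2.44 and 2.69.

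With Elk1, the Nes signals were 13.7, 1.7 and 15.2 on days 0, 4 and 8, and the locus was listed at 0 in ciNSLCs and pri-NPC. These rest on 4, 1 and 3 immunoprecipitate units, with 1 background unit at day 4. Where a signal is 0 the units cannot be read, because any count at or under its background would be listed so, and no fold is given against them. In ciNSLCs 166 loci (10.5%) were at 0 with Elk1, and in pri-NPC 237 (15.0%). A unit of Elk1 was worth 14.5 in pri-NPC, so 0 there is a coarser value than 0 in ciNSLCs. In the stages where Gli2 signal at Nes passed 100, the Elk1 signal was thus at the floor of its library, and at Sox2 in ciNSLCs both antibodies were close, at 32.8 and 26.3.

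With Gli2, 7 loci including Nes reached 100 in both ciNSLCs and pri-NPC but in none of the remaining libraries. The other 6 had Tex14, Eapp, Acp6, Inka2, Kif2c and Sirt4 as the nearest protein-coding gene. The Tex14 locus overlapped the small RNA gene Rnu3b4, the Acp6 locus a tRNA gene, and those of Eapp, Kif2c and Sirt4 genes annotated as small nuclear RNAs. Nes and Inka2 were the loci of the 7 that overlapped no small RNA gene. The share of all loci that overlap such a gene is not given here. Whether the overlaps are unusual, or set Nes and Inka2 apart, was thus not tested.

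Within these 7 the Nes locus had the lowest Gli2 signals before the neural stages. The other 6 had 31 to 99.1 at day 0, 29.6 to 90.2 at day 4 and 17.1 to 72.6 at day 8, against 19, 7.5 and 12.8 at Nes. Those Nes values rest on 3, 1 and 3 units. Their intervals of 2.89 to 86.3, 0.19 to 41.9 and 2.64 to 37.5 in signal overlap the ranges of the other 6. The lowest place of Nes at these stages is thus not settled. In ciNSLCs they had 103.5 to 170.9 and in pri-NPC 111.5 to 211.2, and Nes ranked 3rd in both. Divided by width, Nes ranked 6th of the 7 in ciNSLCs, with 29.1 per 100 bp against a median of 33.7, and 5th in pri-NPC, with 32.5 against 36.9. Its log2 differences from day 0 were the largest of the 7 in both, where the medians were 1.30 and 1.68. Both differences start from the 3 units of Nes at day 0. Elk1 signals at the other 6 were at most 23.8 in every library. Inka2 had Gli2 signals of 47.8, 30.1 and 17.1 at days 0, 4 and 8, then 122.9 in ciNSLCs and 211.2 in pri-NPC.

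**Figure D5:**
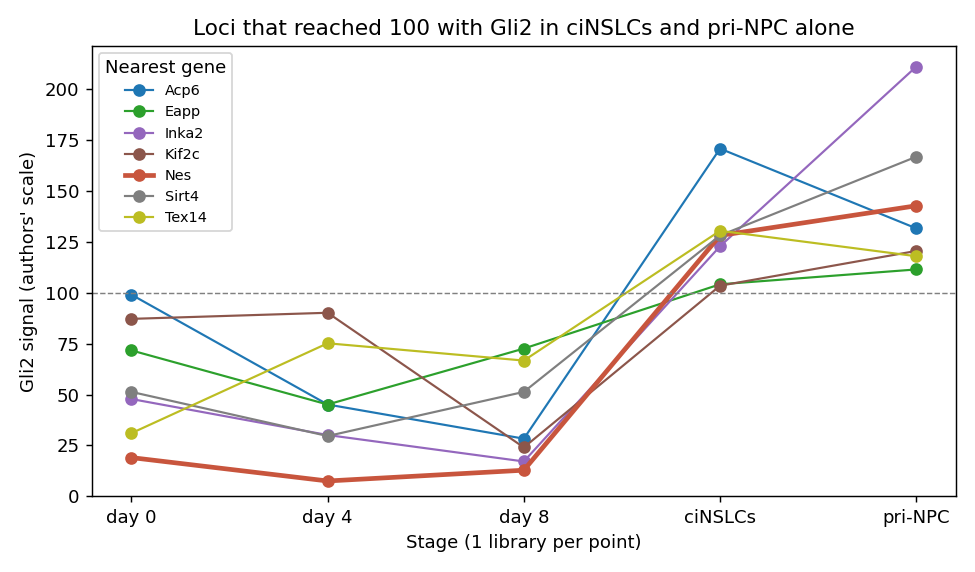
Gli2 signal at each stage for the 7 loci that reached 100 in Gli2 ciNSLCs and pri-NPC alone, named by the nearest protein-coding gene, with lines joining the values of 1 locus. Nes has the lowest signal of the 7 at days 0, 4 and 8, where it rests on 3, 1 and 3 units. It lies among the others in ciNSLCs and pri-NPC.

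Other genes of the neural progenitor list were set beside these. Of 34 such genes 5 had a locus assigned within 50 kb (14.7%, against 3.18% of 21896 annotated protein-coding genes), and the list was written with earlier results known. Sox2 and Nes were picked through their loci and add nothing to this count, which leaves 3 genes. The shares are therefore not a test of the list. Those 3 genes were Msi2, an RNA-binding protein of stem cells, Pax6, a transcription factor of radial glia, and Slc1a3, a glial glutamate transporter. The Pax6 locus lay 38631 bp from the gene, whereas those of Msi2 and Slc1a3 overlapped theirs. The loci of all 3 reached 100 with Gli2 at day 0 alone, at 119.5, 107.5 and 107.5. They had 5.3, 5.3 and 21.0 in ciNSLCs and 1.3, 12.4 and 17.6 in pri-NPC. Nes was thus the 1 of the 5 with higher Gli2 signal in ciNSLCs, and 3 were lower, as were 45.9% of all loci, with a median log2 difference of -2.30 against -0.79 over all loci. Sox2 was the 1 with higher Elk1 signal at day 4, and Slc1a3, Pax6 and Nes were lower, as were 22.3% of all loci, with a median of -1.22 against 0.65. Being listed through Gli2 at day 0 alone tilts Msi2, Pax6 and Slc1a3 towards a decrease. Nes was picked for its Gli2 signal in the neural cells and Sox2 for its Elk1 signal at day 4. That each stood out among the 5 was thus set by the choice.

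Each gene family was read in the same way. Of 20 Sox family genes 3 had a locus (15.0%), Sox2, Sox5 and Sox6, and all reached 100 in the Elk1 day 4 library alone, as did 190 of all 1577 loci. Sox2 was chosen for that signal and adds nothing to the count. The Sox5 locus, inside a gene of neural and cartilage development, had Elk1 signals of 27.5 at day 0, 106.6 and 14.4 on days 4 and 8, and 0 and 9.3 in ciNSLCs and pri-NPC. The Sox6 locus, inside a close relative of Sox5, had 10.3, 116.3, 4.3, 25.4 and 33.1. Neither touched a promoter window, unlike the Sox2 locus. Of 15 intermediate filament genes Nes alone had a locus (6.67%), and Nes was picked through that locus. Vim and Gfap, which are expressed with Nes in glial and progenitor cells, had none assigned. Of 23 Hedgehog pathway genes Smo, the transducer that Hh-Ag1.5 activates, had one (4.35%, near the 3.18% of protein-coding genes). Gli2 signal at Smo was 123, 29.6 and 3.7 at days 0, 4 and 8, then 0 in ciNSLCs and 14.3 in pri-NPC. It passed 100 at day 0 alone, and at day 8 it was below the 12.8 at Nes. Elk1 signal at Smo was 26, 108.3 and 38.2 at days 0, 4 and 8, then 4.6 in ciNSLCs and 0 in pri-NPC, so it passed 100 at day 4 as that of Sox2 did, with a log2 difference from day 0 of 2.02. Being listed through Gli2 at day 0 and Elk1 at day 4 tilts Smo towards a decrease with Gli2 and a high day 4 value with Elk1.

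The loci whose signals over the 10 libraries most resembled those of Sox2 were sought among 696 other genes by Pearson's correlation of log2 signal plus 1. They were in or near Ralgps1 (r = 0.91), Car8 (0.91), Vstm2l (0.88), Smpx (0.87) and Zbtb7b (0.86). All 5 had Elk1 signals of 106.6 to 127.7 at day 4 and 0 in pri-NPC. At day 8 their Elk1 signals were 4.3 to 20.3, against 55.9 at Sox2. By Spearman's rank correlation none of the 5 was among the 5 most like Sox2. The points share libraries and listing, so these values are descriptions.

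Most like Nes were the loci in or near Slco3a1 (r = 0.90), Gpx5 (0.89), LOC666331 (0.88), Arhgef1 (0.88) and H1f3 (0.87), of which the last encodes a linker histone. All had Elk1 signal of 0 in ciNSLCs and pri-NPC and Gli2 signals of 100.4 to 125.2 in pri-NPC, with 13.6 to 102.8 in ciNSLCs. Their day 0 Gli2 signals were 23.9 to 227, all above the 19 at Nes. The rise of Gli2 at Nes from day 0 to ciNSLCs, 19 to 128.2, was not shared by all. Gli2 signal fell at Slco3a1 (23.9 to 13.6), Gpx5 (227 to 102.8) and LOC666331 (95.6 to 29.3). It rose less than at Nes at Arhgef1 (47.8 to 69.9) and H1f3 (23.9 to 44.3). At Gpx5 it was also lower in pri-NPC (107.6) than at day 0. With a pseudocount of 5, 1 of these genes was among the 5 most like Nes.

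Neither locus had another listed locus close by. The nearest to Sox2 lay 144.9 kb after it, with no protein-coding gene within 50 kb and a Gli2 signal of 107.5 at day 0, and on the other side 1510.9 kb before it, inside Pex5l, with an Elk1 signal of 100.3 at day 4. The nearest to Nes lay 681.5 kb before it, near Fcrls, with an Elk1 signal of 100.4 in pri-NPC, and 1421.4 kb after it, near Zbtb7b, with one of 106.6 at day 4.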

How the data were processed

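The deposited table gives, for each locus and library, the authors' signal, which is never negative. Its 10 columns were tied to samples through their headers. Per the labels' protocols, chromatin was crosslinked, sheared to 200 to 400 bp, immunoprecipitated and amplified over 13 PCR cycles, and reads were 50 bp. Per the submitters' processing notes, the build was mm10 and the tools were Bowtie2, SAMtools, FastQC and CASAVA 1.8.4, without their order. How peaks were called, background removed and libraries scaled is not given in the sources used here, nor is total depth.

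For each library the value of 1 immunoprecipitate unit, and for each stage that of 1 background unit, was fitted to signals under 150 with a tolerance of 0.06 and up to 6 background units. This placed 92.4 to 98.4% of signals on the grid and is an inference from the values. The share that would fall on the grid by chance was not computed. The fit was also run on data simulated under the same model, which cannot test whether the deposited signals follow that model. At each nonzero signal of Sox2 and Nes 1 combination of units was within the tolerance. Intervals of ratios are 95% exact conditional binomial intervals of signal over unit value, unless immunoprecipitate units are named. Signal over unit value is net of background, and the counting error of that background is not included.

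Differences are of log2 signal plus 1, with a limit of 2-fold for a call. Loci were given the closest protein-coding gene of RefSeq GRCm38.p6, up to 50 kb away. Named genes were Sox2, Nes, members of 4 lists with a locus, the 5 most like each member, its neighbours, and loci that reached 100 in the libraries of Nes. Map3k14, Polr3e, Ndufs7 and Cipc, outside this rule, were named after their values were seen, and Vim and Gfap as list genes with no locus. Members and lists were chosen with earlier results of these data known. Successive stages and division by width were added after seeing the data. Computation used pandas 2.3.3, scipy 1.17.1 and numpy 2.4.6 under Python 3.11.15, and plots matplotlib 3.10.9.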

Additional observations from a re-analysis of the deposited data

Results flagged for a closer look

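At Nes the deposited signals of the antibodies moved in opposite directions from day 0. Gli2 signal went from 19 to 128.2 in ciNSLCs, a log2 difference of 2.69, while Elk1 signal went from 13.7 to 0. In pri-NPC Gli2 signal was 142.8, a log2 difference of 2.85, and Elk1 signal was again 0. The difference between antibodies was not tested, with 1 library each, and the Elk1 signal at day 0 rests on 4 units (interval 3.74 to 35.2 in signal). Taken as 0 counted units, a signal of 0 allows up to 10.4 in ciNSLCs and 53.5 in pri-NPC by counting error. The units behind a 0 cannot be read, so the true bounds are not known. Both ranges overlap that of day 0, so a change in Elk1 signal is not shown, and no fold is given for it.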

How the results depend on the processing

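No paired analysis was possible because each group has 1 library, and for the same reason no library was left out in turn. Of 161 values recomputed under an alternative, 145 stayed within the counting interval of the value or within 1.5 times the count. Many of these intervals are wide, so a value could stay within one though its sign turned. Gli2 at Nes on day 8 against day 0 went from -0.54 to 0.85 after median scaling. Elk1 against Gli2 at Sox2 on day 0 went from -0.28 to 1.47 in the same way. The Gli2 difference at Nes between day 4 and day 0 turned from -1.23 to 0.24 after scaling to the same 75th percentile. It was counted apart as reversed, though 0.24 is also within its interval of -7.55 to 2.6. Of all 1577 loci, scaling to the same median gave 624 lower with Elk1 in pri-NPC than at day 0, against 308 as deposited. With Gli2 it gave 484 and 487 lower at days 4 and 8, against 854 and 899, and 582 higher in ciNSLCs, against 335. Among loci listed through another library, a smaller set, 504 and 546 were lower with Gli2 at days 4 and 8. Among such loci the percentile of Sox2 was 35.4 with Elk1 (pri-NPC) and 64.3 with Gli2 (day 0), and that of Nes 17.2 with Elk1 (day 4) and 49.0 with Gli2 (day 0). Divided by locus width, an alternative chosen after seeing the data, the percentile of Sox2 was 76.3 in Elk1 day 4 and that of Nes 91.8 and 92.2 in Gli2 ciNSLCs and pri-NPC. Of the 5 genes most like Sox2, 0 remained by rank correlation, and of those most like Nes 1 remained with a pseudocount of 5. The cause was not tested. Depth limits most the values that rest on 1 to 4 units, among them Elk1 in pri-NPC at Sox2 and Gli2 up to day 8 at Nes.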
